A study of Mus musculus with 9 samples.

Results

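The MHC class I presentation genes are the 10 genes whose products assemble the class I complex, make and move the peptides it carries, or drive its transcription: B2m, H2-K1, H2-D1, H2-Q7, Tap1, Tap2, Tapbp, Psmb8, Psmb9 and Nlrc5. They were taken by name from the 27998 genes of a table of counts, and all 10 were present with counts above 0. The list was chosen with earlier results of these data known. Class I molecules show peptides cut from the cell's own proteins to CD8 T cells, and they are read by natural killer (NK) cells as a sign of a healthy cell. The immunoproteasome subunits Psmb8 and Psmb9 shape the peptides, the Tap1 and Tap2 transporter carries them into the endoplasmic reticulum, tapasin (Tapbp) holds the empty heavy chain at the transporter, and the heavy chains H2-K1, H2-D1 and H2-Q7 reach the surface bound to beta-2 microglobulin (B2m). Nlrc5 is the transactivator of class I promoters, and interferons raise the whole set. In liver, sinusoidal endothelial cells and Kupffer cells express class I strongly, while hepatocytes hold little at rest.

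The genes were measured by droplet single-cell RNA-seq of C57BL/6 mouse livers in 9 libraries. The 2 WT libraries came from ROSA26-rtTA-IRES-EGFP mice without the tetYAP transgene after 7 days of doxycycline food. The 4 YAP3d libraries came from ROSA26-rtTA-IRES-EGFP mice with tetYAP, fed doxycycline for 3 days, and the 3 YAP7d libraries from the same genotype fed for 7 days, so YAP3d and WT differ in feeding time as well as genotype. All groups share the strain, the rtTA allele and doxycycline. By the study's methods the tetYAP transgene makes a constitutively active YAP, and an albumin-driven Cre opens the rtTA allele in hepatocytes, so the cells described here, apart from the hepatocyte-like ones, were not the cells meant to carry the induced YAP. The methods also describe minced, enzyme-treated and filtered tissue spun at low speed, and name the product non-hepatocytes.

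Of 8562 cells 8527 were kept, and fixed marker genes named 14 classes among 24 clusters. Libraries held 293 to 2554 cells and 1314878 to 25056881 UMIs, that is, single RNA molecules counted, and any pair of libraries shared 0 to 7 cell barcodes. Depth per cell moved with the groups: the median UMI count per cell was 3190.5 and 4358 in the WT libraries, 3380 to 5069.5 in YAP3d and 5717 to 11471.5 in YAP7d. By the study's methods all of these libraries were made with the v2 kit, where the labels name 2 versions. Transcripts of Gm10709 split the libraries in another way. They lay at 3.65 and 11.0 CPM (a gene's UMIs scaled to a common total) in WT and at 4.69 and 11.2 CPM in YAP3d libraries 3 and 4, against 347 and 428 CPM in YAP3d libraries 1 and 2 and 363 to 611 CPM in YAP7d. WT and YAP7d lie on opposite sides of that split and YAP3d alone holds libraries of both kinds, so a fit with a term for it, given below, rests on YAP3d. In hepatocyte-like cells, Yap1 had 1 count among 14486 UMIs in WT, 14 among 274996 in YAP3d and 45 among 459711 in YAP7d.

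In the GRCm38 assembly, 8 of the 10 genes lie on chromosome 17 within the major histocompatibility complex, from Tapbp at chr17:33919478-33929290 to H2-Q7 at chr17:35439140-35443773. Psmb9 (chr17:34182030-34187330), Tap1 (chr17:34187556-34197225), Psmb8 (chr17:34198195-34201454) and Tap2 (chr17:34204479-34216321) stand side by side. H2-K1 lies at chr17:33996012-34000619 and H2-D1 at chr17:35263094-35267497. B2m is at chr2:122147687-122153082 and Nlrc5 at chr8:94434335-94527272. Class I promoters are read through a shared set of short elements, and 8 of the 10 members had a promoter in the RefSeq table for GRCm38.p6 (Tap2 and Nlrc5 did not). The bases just before the start site of B2m, of the 3 heavy chains and between the starts of Tap1 and Psmb9 are printed because they hold the elements through which these genes can be regulated together. Capitals mark the kappa B site core GGGATTCC, the X2 box core TGACG, the ATTGG letters of an inverted CCAAT box on either strand and, in B2m, a match to the interferon-stimulated response element core GAAANNGAA. The start sites are those of the promoter table, which for H2-K1 and H2-Q7 lie inside the gene spans given above. The stretches are chr2:122147507-122147686 (plus strand) for B2m, chr17:34000348-34000527 (minus) for H2-K1, chr17:35262914-35263093 (plus) for H2-D1, chr17:35438975-35439154 (plus) for H2-Q7 and chr17:34187331-34187555 (plus) for Tap1 and Psmb9.
B2m: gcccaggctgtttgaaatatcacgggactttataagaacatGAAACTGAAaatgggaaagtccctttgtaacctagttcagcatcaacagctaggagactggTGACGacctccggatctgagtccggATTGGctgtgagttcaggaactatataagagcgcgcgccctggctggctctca
H2-K1: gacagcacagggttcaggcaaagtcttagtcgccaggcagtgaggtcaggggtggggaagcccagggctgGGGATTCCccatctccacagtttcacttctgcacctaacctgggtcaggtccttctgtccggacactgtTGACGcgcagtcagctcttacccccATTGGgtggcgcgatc
H2-D1: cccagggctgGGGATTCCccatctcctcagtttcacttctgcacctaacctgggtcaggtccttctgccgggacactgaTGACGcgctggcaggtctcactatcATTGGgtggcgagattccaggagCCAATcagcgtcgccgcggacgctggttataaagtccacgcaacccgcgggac
H2-Q7: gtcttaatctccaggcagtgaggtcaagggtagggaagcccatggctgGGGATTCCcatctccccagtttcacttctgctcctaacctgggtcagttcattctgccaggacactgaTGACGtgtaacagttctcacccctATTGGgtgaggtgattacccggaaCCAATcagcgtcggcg
Tap1 and Psmb9: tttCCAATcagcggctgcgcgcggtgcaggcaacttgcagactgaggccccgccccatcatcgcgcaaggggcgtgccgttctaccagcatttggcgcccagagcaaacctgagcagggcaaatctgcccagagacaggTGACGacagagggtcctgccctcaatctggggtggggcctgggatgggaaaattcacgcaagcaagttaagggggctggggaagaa

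The promoters were searched on both strands from 250 bases before to 50 bases after each start. The kappa B core stood in 3 of the 8 member promoters, those of the heavy chains, and in 1.07% of all 27025 promoters of that length. The X2 core stood in 6 of the 8 (B2m, the 3 heavy chains, Tap1 and Psmb9) against 21.0% of all promoters, and ATTGG in 7 of the 8 (all but Psmb8) against 37.9%. From the first base of the kappa B core to that of the X2 core there were 69 bases in H2-K1, 69 in H2-D1 and 68 in H2-Q7, and from there to ATTGG 25, 25 and 24 bases. The response element core GAAANNGAA was found in B2m alone (8.57% of all promoters) and the gamma-activated site TTCNNNGAA in Psmb8 alone (8.47%). Only these spellings were searched for the interferon elements, and variants of them were not looked for. The search therefore does not show that the other promoters, those of the heavy chains among them, lack an interferon response element. Tap1 and Psmb9 share 1 stretch between their starts, so their X2 core is 1 site counted for both genes, and so is their ATTGG. These are matches of letters, and the heavy chains are close copies of each other, so their shared layout is 1 family's. The same likeness means that counts of H2-K1, H2-D1 and H2-Q7 may be split uncertainly between them.

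All 13 classes with at least 10 cells in some library carried class I transcripts (basophil-like cells, 22 in all, had no such library), and the members fell into different orders across classes. Levels are CPM of the UMIs summed per library and class, given as mean ± SD over libraries with at least 10 cells of the class. They pool libraries of the 3 groups, of which not every class has all, so an order over classes can differ within a group. They describe classes drawn from these same cells, so no test was run. B2m was highest in plasmacytoid dendritic cell (pDC)-like cells at 7219 ± 1286 CPM (n = 4), then in monocyte-like (6797 ± 1195, n = 8) and endothelial-like cells (6514 ± 1335, n = 9). In the 2 WT libraries alone macrophage-like cells (mean 7918 CPM of B2m), which rank below endothelial-like cells in the pooled means, stood with monocyte-like (7964) and endothelial-like cells (7714). B2m was lower in B cell-like cells at 3104 ± 277 CPM (n = 9) and lowest in hepatocyte-like cells at 1587 ± 413 CPM (n = 6). Among the 11 classes with at least 4 libraries, hepatocyte-like cells stood lowest for all 10 genes. In them H2-K1 was at 159 ± 135 CPM and H2-D1 at 224 ± 139 CPM. Their highest H2-K1 was in YAP3d library 4, where these cells also held transcripts that mark other cells, as given below. Of the rarer classes, cholangiocyte-like cells held H2-K1 at 2097 ± 715 CPM (n = 2) and stellate-like cells, in 1 library, at 1379 CPM.

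The heavy chains had different orders over these 11 classes. H2-K1 reached 2408 ± 667 CPM in NK cell-like (n = 9), 2303 ± 512 in pDC-like (n = 4) and 1919 ± 359 in T cell-like cells (n = 9), against 1381 ± 346 in endothelial-like, 1221 ± 439 in macrophage-like and 650 ± 304 in neutrophil-like cells (n = 4). In WT alone the H2-K1 means of macrophage-like (1783 CPM) and endothelial-like cells (1667) stood in the other order. H2-D1 was highest in pDC-like (4326 ± 853 CPM) and NK cell-like cells (3557 ± 811), with monocyte-like and neutrophil-like cells next. It varied least: outside hepatocyte-like cells its highest class, pDC-like, was 2.07 times its lowest, cDC1-like. H2-Q7, a non-classical heavy chain, varied most, at 919 ± 254 CPM in pDC-like, 861 ± 188 in NK cell-like and 706 ± 124 in T cell-like cells but 98.4 ± 43.1 in monocyte-like and 65.4 ± 31.3 in macrophage-like cells, a 14.1-fold range outside hepatocyte-like cells. The peptide supply genes had another order. Psmb8 was highest in type 1 dendritic cell (cDC1)-like cells, the cells known for cross-presentation, at 1173 ± 72.9 CPM (n = 4), and so were Psmb9 (661 ± 50.6), Tap1 (229 ± 33.0) and Tap2 (151 ± 27.3). Endothelial-like cells, high in B2m, held only 275 ± 31.2 CPM of Psmb8. Tapbp was highest in pDC-like cells (480 ± 64.3 CPM), where the next of these classes, monocyte-like, had 220 CPM. Nlrc5 was sparse in these classes, from 1.59 CPM in hepatocyte-like to 26.9 ± 23.9 in NK cell-like cells. Of 100 pairs of neighbouring classes in the orders of the 10 genes over these 11 classes, 76 had means closer than the larger SD of the pair.

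**Figure D1:**
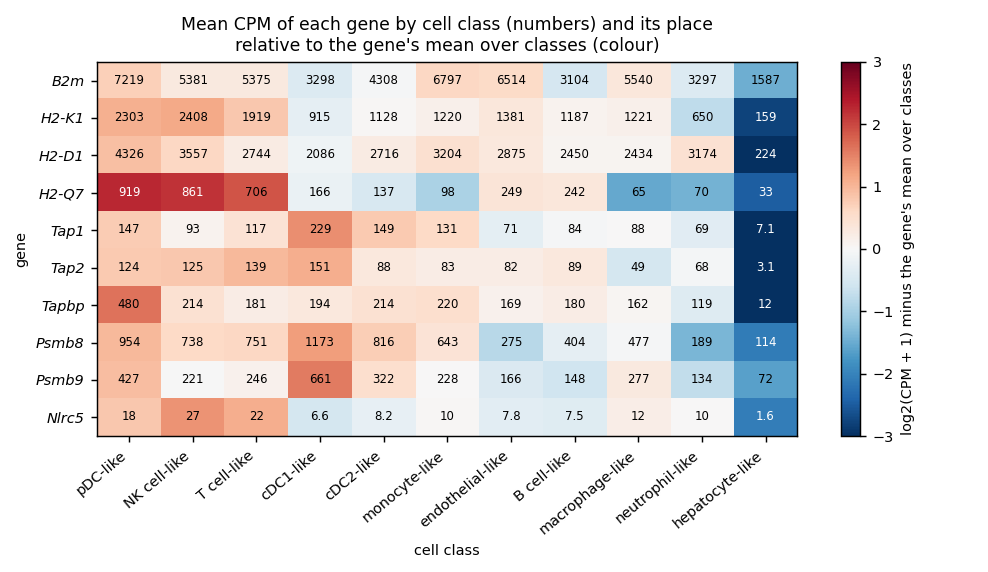
Mean CPM of the 10 genes (rows) in the 11 cell classes with at least 4 libraries (columns); printed numbers are mean CPM over libraries, and colour is log2(CPM + 1) relative to the same gene's mean over classes. Hepatocyte-like cells are lowest in every row, H2-Q7 is high in pDC-like, NK cell-like and T cell-like cells, and Tap1, Tap2, Psmb8 and Psmb9 are highest in cDC1-like cells.

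Across 13 classes the members' mean log2(CPM + 1) were most alike for H2-D1 and Tapbp (r = 0.93), H2-D1 and Tap2 (0.92) and Psmb8 and Psmb9 (0.91), and least for Tapbp and Nlrc5 (0.23) and H2-Q7 and Psmb9 (0.23). Among 10676 genes compared, the pattern of H2-K1 was most like those of Os9 (r = 0.98) and Sdf4 (0.95), that of Psmb8 most like Gna15 (0.93), Phf11b (0.93) and Cd48 (0.93), that of Tapbp most like Atf6b (0.95) and that of Nlrc5 most like Gab3 (0.96). All of these values share the same libraries, and the points are classes, not independent samples.

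The next question was whether the genes changed with YAP induction, within a class. The UMIs of a class were added up within each library and compared in the 6 classes with at least 10 cells in enough libraries. A gene is called where the adjusted p of edgeR's quasi-likelihood test, Benjamini-Hochberg corrected over all genes tested in the class, lay under 0.05. Over the 6 classes 57 tests of members could be made for each comparison. Between YAP7d and WT 43 of the 57 log2 fold changes were below 0, 5 were called, all of them lower in YAP7d and 4 of them in endothelial-like cells, and 20 had an unadjusted p under 0.05, again all lower. The share of all genes called in this comparison ran from 0.0448% in B cell-like to 18.3% in endothelial-like cells. Counts of members below 0 or at an unadjusted p have no such share beside them, here or below, and are descriptions. Of the members tested in all 6 classes, only H2-K1 was below 0 in 6 of 6, with log2 fold changes from -1.15 to -0.21. Psmb8 stayed closest to 0, between -0.16 and 0.14, with 3 classes on each side of 0. The 3 comparisons share libraries, so their values are given side by side and are not independent.

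Endothelial-like cells held the most calls: B2m, H2-K1, Psmb9 and Tap2 were lower in YAP7d than in WT, 4 of the 9 members tested, where 18.3% of all 7464 genes tested in this class were called. H2-K1 stood at 1463 and 1872 CPM in WT, at 1749, 1347, 1560 and 1440 in YAP3d and at 1097, 740 and 1164 in YAP7d. The YAP7d libraries lay below all WT and YAP3d libraries, where 24.2% of all genes tested in this class lay wholly below WT. The log2 fold change from WT to YAP7d was -0.69 (SE 0.195, edgeR adjusted p = 0.0223) and from YAP3d to YAP7d -0.54 (SE 0.169, edgeR adjusted p = 0.0386). The latter was the only member called between those groups, where 17.1% of genes were called. B2m, the light chain, stood at 6864 and 8564 CPM in WT, at 7743, 6659, 7274 and 6108 in YAP3d and at 5817, 4000 and 5596 in YAP7d, again without overlap. Its log2 fold change from WT to YAP7d was -0.55 (SE 0.171, edgeR adjusted p = 0.0346). Psmb9 had 203 and 215 CPM in WT, 191, 185, 193 and 148 in YAP3d and 131, 113 and 113 in YAP7d. From WT to YAP7d it was lower, at -0.79 on the log2 scale (SE 0.195, edgeR adjusted p = 0.0105). Its partner Psmb8 was not called: it had 252 and 348 CPM in WT and 280, 239 and 273 in YAP7d, overlapping, with a log2 fold change of -0.15 (95% interval -0.54 to 0.24).

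Of the transporter subunits Tap2 was called and Tap1 was not. Tap2 in endothelial-like cells had 99.3 and 123 CPM in WT, 121, 73.8, 89.5 and 81.0 in YAP3d and 99.4, 22.6 and 31.2 in YAP7d, so that YAP7d library 1 reached the lower WT library while the other two lay far below. Its log2 fold change from WT to YAP7d was -1.27 (SE 0.370, edgeR adjusted p = 0.0265). Tap1 had 52.0 and 79.1 CPM in WT and 122, 49.6 and 80.2 in YAP7d, a log2 fold change of 0.35 (95% interval -0.30 to 1.01). H2-D1 and Tapbp had values below 0 that missed the threshold, with log2 fold changes of -0.54 and -0.67 (edgeR adjusted p = 0.0535 and 0.0534). Their YAP7d libraries all lay below WT, as did those of 24.2% of all genes tested in this class. H2-Q7 was at -0.30 (edgeR adjusted p = 0.525). Between YAP3d and WT no member was called by edgeR, with 0 at an unadjusted p under 0.05 and 0 by DESeq2, and 0% of genes were called. All 9 log2 fold changes were nevertheless below 0, with a median of -0.18.

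Other measurements moved with the groups in this class. The YAP7d endothelial-like cells were few, 111 against 778 in WT, and 91 of them formed a cluster of their own (cluster 22) with only 2 WT and 5 YAP3d cells, while WT cells lay mostly in clusters 6 and 3. Their median UMI count per cell was 7403.5 to 13759.5 per library against 2384 and 4668.5 in WT. The summed level of the endothelial markers was 7714 to 8287 CPM in YAP7d against 17695 and 20138 in WT, that of the dissociation response genes 2339 to 2434 against 7341 and 9682, and that of the proliferation genes 5232 to 6639 against 1684 and 2184. The macrophage markers, at 447 to 833 CPM in YAP7d and 407 and 615 in WT, overlapped. Stellate markers were at 113 to 187 CPM in YAP7d and at 333 and 587 in WT. In cluster 22 itself 11 of 12 endothelial markers were raised, but its naming depended on the clustering: at resolution 0.5 its 91 YAP7d cells joined a stellate-like cluster, and 19 YAP7d cells stayed endothelial-like. Cells were also thinned to 2000 UMIs, with shallower cells kept at their own depth. None of the 4 members was then called, at -0.55 for H2-K1, -0.43 for B2m, -0.59 for Psmb9 and -0.45 for Tap2. The part of the other measurements in the 4 calls was not tested. The 4 calls were 2 without WT library 1, 0 without WT library 2, 2 without YAP7d library 1 and 1 without YAP7d library 2. Without YAP7d library 2 the log2 fold change of B2m was -0.34 and that of H2-K1 -0.46, and without YAP7d library 3 that of Tap2 was -0.84. The H2-K1 call against YAP3d was lost without YAP3d library 1, 3 or 4 or YAP7d library 1 or 2, with a log2 fold change of -0.31 without YAP7d library 2.

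NK cell-like cells showed the same direction in the heavy chains. H2-K1 was called lower in YAP7d against WT, 1 of 10 members where 3.96% of all genes were called, and against YAP3d, 1 of 10 where 10.4% were called. It stood at 3188 and 2987 CPM in WT, at 3279, 2569, 2325 and 2411 in YAP3d and at 1799, 1576 and 1539 in YAP7d. All YAP7d libraries lay below all the others. The log2 fold change was -0.78 from WT (SE 0.189, edgeR adjusted p = 0.0264) and -0.53 from YAP3d (SE 0.162, edgeR adjusted p = 0.0444). H2-D1 stood at 4385 and 4319 CPM in WT and 2619, 2511 and 2770 in YAP7d, a log2 fold change of -0.59 that missed the threshold (edgeR adjusted p = 0.0876). B2m had 6264 and 6685 CPM in WT and 4412, 3614 and 4804 in YAP7d (log2 fold change -0.46, edgeR adjusted p = 0.184). In 9 of the 10 members, all but Tap1, the YAP7d libraries lay below both WT libraries, as did 23.6% of all genes tested in this class. Psmb8, at 785 and 813 CPM in WT and 744, 681 and 690 in YAP7d, was among them with a log2 fold change of only -0.05 (95% interval -0.47 to 0.36).

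Nlrc5 in NK cell-like cells had 84.1 and 31.6 CPM in WT, 0, 33.0, 16.3 and 28.6 in YAP3d and 12.8, 22.7 and 12.9 in YAP7d, that is, 9 and 12 counts in the WT libraries, so its log2 fold change of -1.58 from WT to YAP7d has a wide interval (-2.86 to -0.31, edgeR adjusted p = 0.151). No member was called between YAP3d and WT by edgeR, 0 of 10 where 0% of genes were called, with 0 at an unadjusted p under 0.05 and 0 by DESeq2. The median UMI count per cell was 5606 to 8517.5 in YAP7d and 4031 and 4226.5 in WT, the proliferation genes were at 7689 to 9003 CPM against 1935 and 5140, and most YAP7d cells lay in cluster 5 (200 of 261) while most WT cells lay in cluster 0 (70 of 114). Summed markers of other cells differed without overlap in this class as well: T cell markers were at 145 to 384 CPM in YAP7d against 1589 and 1648 in WT, endothelial markers at 8.53 to 31.3 against 131 and 440, and macrophage markers at 232 to 621 against 74.8 and 171. Dissociation response genes were at 2438 to 3044 CPM in YAP7d against 6947 and 8933. With cells thinned to 2000 UMIs no member was called against WT, and the part of the other measurements was not tested. The H2-K1 call against WT was lost without WT library 1, WT library 2 or YAP7d library 2, and 2 and 3 members were called without YAP7d libraries 1 and 3, where 3.51% and 5.07% of all genes were. The call against YAP3d was lost without either WT library, YAP3d library 1 or 4, or any YAP7d library.

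In macrophage-like cells, the class of the Kupffer cell markers, the largest differences of H2-K1 and B2m were measured, but none was called. H2-K1 had 1766 and 1799 CPM in WT, 1438, 677, 1386 and 1458 in YAP3d and 869, 769 and 828 in YAP7d. Its log2 fold change from WT to YAP7d was -1.15 (SE 0.308, edgeR adjusted p = 0.0699). B2m had 7748 and 8087 CPM in WT, 5976, 3343, 6157 and 5711 in YAP3d and 4641, 3955 and 4246 in YAP7d, with B2m at -0.92 on the log2 scale (SE 0.300, edgeR adjusted p = 0.123). For both genes WT was highest, YAP3d between and YAP7d low, with YAP3d library 2 below YAP7d. Of 9 members tested between YAP7d and WT 0 were called by edgeR, 5 had an unadjusted p under 0.05, all lower, and DESeq2 called 2, B2m and H2-K1, where edgeR called 1.15% of all genes. Psmb8 was at 474 and 470 CPM in WT and 588, 462 and 541 in YAP7d, a log2 fold change of 0.14 (95% interval -0.44 to 0.72). Between YAP3d and WT all 9 values were below 0, with a median of -0.60, and 0 were called by either tool (3 at an unadjusted p under 0.05, 0% of genes called). Between YAP7d and YAP3d 0 members were called by either tool, 0 at an unadjusted p under 0.05, where 0.712% of genes were called.

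YAP3d library 2 stood apart among the macrophage-like cells, with 19754 CPM of macrophage markers, the lowest of YAP3d libraries that reached 35555 CPM, and 1067 CPM of MHC class II genes, near the YAP7d libraries (734 to 1368) and far from WT (15945 and 19380). Without it, 3 members were called between YAP7d and WT, where 6.88% of all genes were called, with H2-K1 at a log2 fold change of -1.15 (edgeR adjusted p = 0.00307) and B2m at -0.92 (edgeR adjusted p = 0.0160), and H2-K1 was called between YAP7d and YAP3d (6.2% of all genes). Without YAP3d library 4, H2-K1 was called between YAP7d and WT (edgeR adjusted p = 0.0348, 4.86% of all genes called). Median UMI counts per cell were 10096 to 23022.5 in YAP7d and 1903 and 7201 in WT. Dissociation response genes were at 2390 to 2942 CPM in YAP7d against 4573 and 8913 in WT, proliferation genes at 4197 to 4860 against 1754 and 2082, macrophage markers at 25327 to 30155 against 30849 and 35631, endothelial markers at 282 to 294 against 936 and 1021, and monocyte markers at 1880 to 2693 against 1081 and 1836, all without overlap. Their part was not tested. The B2m difference from WT to YAP7d was smaller at clustering resolution 2 (-0.58), with a term for the libraries with Gm10709 transcripts (-0.52), and where cluster 12, described below with the monocyte-like cells, was counted as macrophage-like (-0.64), and it was called in none of these.

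In the other classes no member was called. Monocyte-like cells had no member called, 0 of 10 by either tool, between YAP7d and WT (3 at an unadjusted p under 0.05, 0.802% of genes called), YAP3d and WT (1 at an unadjusted p under 0.05, 0% called) or YAP7d and YAP3d (0 at an unadjusted p under 0.05, 0.362% called), although all 10 values from WT to YAP7d were below 0. Tapbp had 289 and 316 CPM there in WT, 214, 277 and 211 in YAP3d and 166, 126 and 164 in YAP7d, so the YAP7d libraries lay below all the others. In this class 14.3% of all genes tested lay wholly below WT in YAP7d. The log2 fold change of Tapbp from WT was -0.98 (SE 0.287, edgeR adjusted p = 0.124). H2-K1 had 1623 and 1502 CPM in WT and 1162, 802 and 1038 in YAP7d (log2 fold change -0.61, edgeR adjusted p = 0.358). Of the YAP7d cells of this class 548 of 1188 lay in cluster 12, a cluster high in complement C1q genes that held 22 of the 80 WT cells. Macrophage markers were at 6038 to 9500 CPM in YAP7d monocyte-like cells against 1746 and 2901 in WT, monocyte markers at 5292 to 10140 against 10275 and 13353, endothelial markers at 30.9 to 49.2 against 267 and 527, proliferation genes at 3792 to 6262 against 1712 and 1824, and interferon-induced genes at 785 to 1657 against 2149 and 2880, all without overlap. The median UMI count per cell was 8270.5 to 12627.5 in YAP7d and 7335 and 7800 in WT, and the part of these was not tested. In T cell-like cells H2-K1 had 2143 and 1973 CPM in WT, 2447, 2123, 2145 and 1648 in YAP3d and 1801, 1779 and 1214 in YAP7d, with a log2 fold change of -0.35 (95% interval -0.73 to 0.04). Proliferation genes were at 5334 to 6786 CPM in YAP7d T cell-like cells against 2579 and 2777 in WT, macrophage markers at 289 to 626 against 61.4 and 221, endothelial markers at 13.6 to 34.8 against 157 and 432, dissociation response genes at 3690 to 4102 against 4972 and 8013, T cell markers at 3148 to 3306 against 3710 and 4048, and NK cell markers at 538 to 930 against 1033 and 1048. Cluster 13 held 190 of the 384 YAP7d and 116 of the 456 WT T cell-like cells, and the part of these was not tested. No T cell member was called by either tool between YAP7d and WT (0 at an unadjusted p under 0.05, 0.135% of genes called), YAP3d and WT (0, and 0%) or YAP7d and YAP3d (1, and 1.92%).

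B cell-like cells had small differences. H2-K1 was at 1271 and 1299 CPM in WT, 1143, 1195, 1231 and 1232 in YAP3d and 1232, 1058 and 1021 in YAP7d, a log2 fold change of -0.21 from WT (edgeR adjusted p = 0.999). B2m was at 2614 and 3463 CPM in WT and 3044, 2940 and 3550 in YAP7d. No member was called by either tool, and none had an unadjusted p under 0.05, between YAP7d and WT (0.0448% of genes called), YAP3d and WT (0%) or YAP7d and YAP3d (0%). In YAP7d the median UMI count per B cell-like cell, 2650.5 to 5061, overlapped with WT at 3023 and 3041, while macrophage markers, at 285 to 694 CPM against 56.3 and 236, and endothelial markers, at 0 to 58.6 CPM against 153 and 503, did not overlap.

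**Figure D2:**
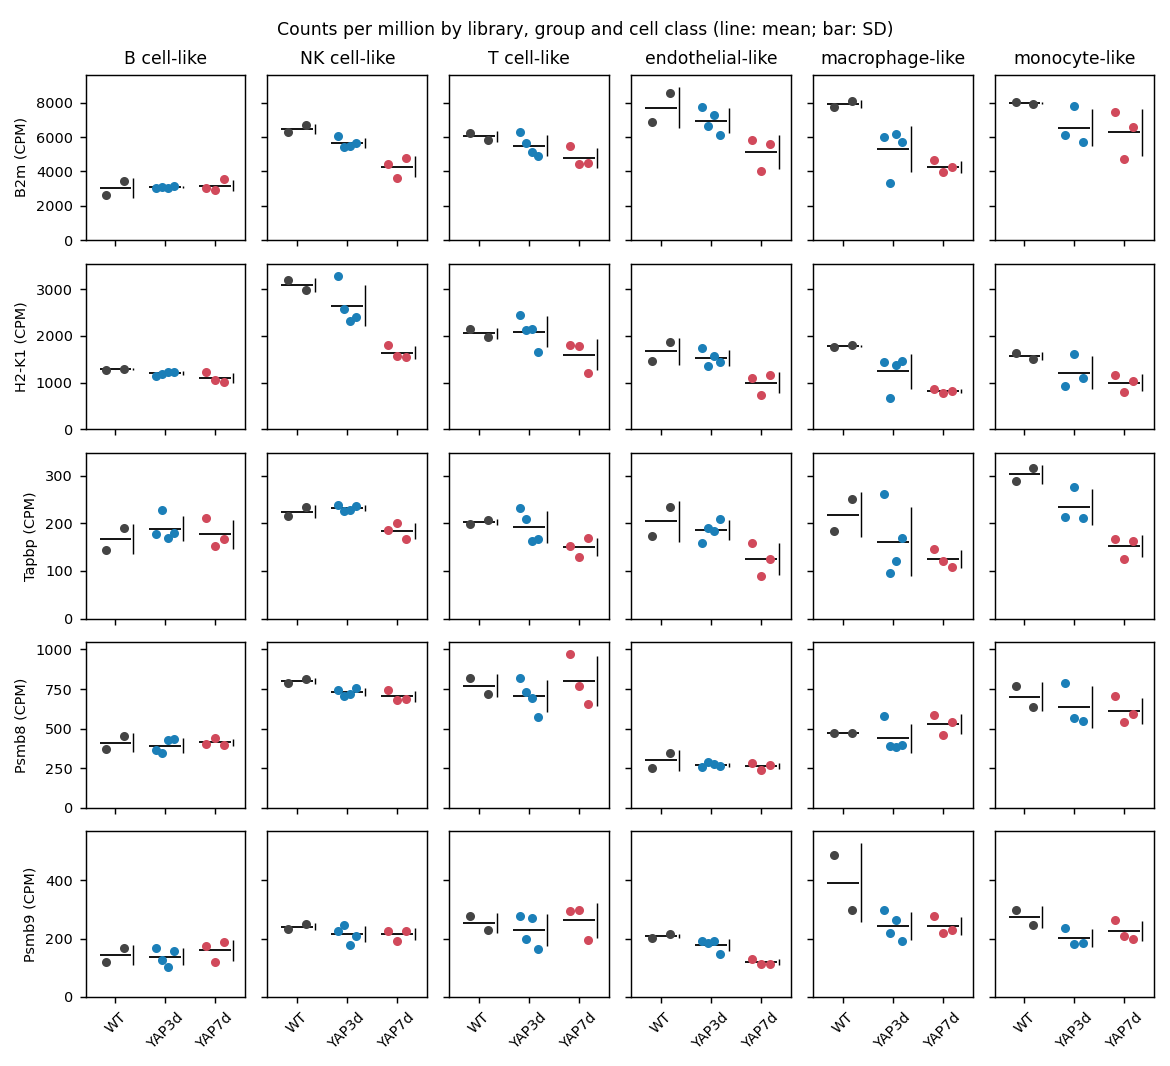
CPM of B2m, H2-K1, Tapbp, Psmb8 and Psmb9 (rows, linear axes from 0) in the 6 tested classes (columns); each point is a library, the line the group mean and the bar the SD. H2-K1 is lower in all YAP7d than in all WT libraries in each of the 6 classes. Between 9.31% (B cell-like) and 24.2% (endothelial-like) of all genes tested in a class lay below WT in the same way. Psmb8 overlaps between WT and YAP7d in endothelial-like cells.

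**Figure D3:**
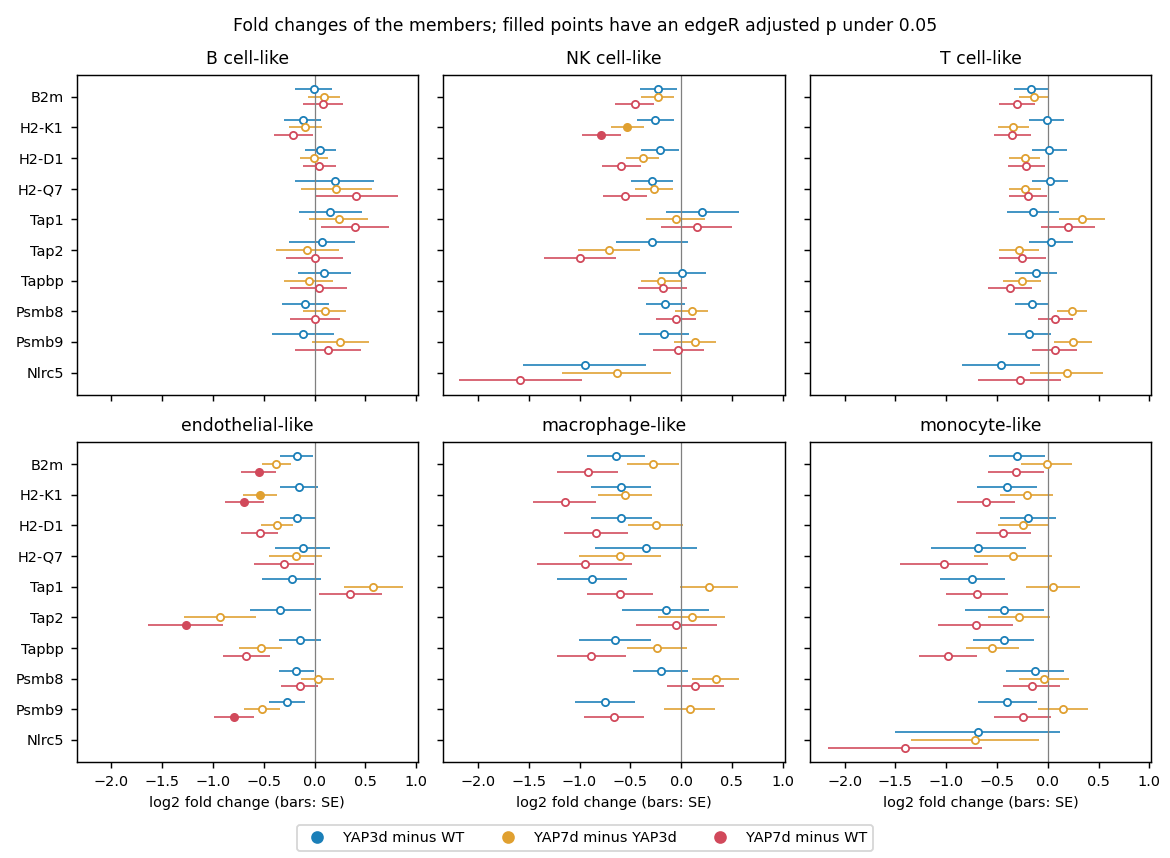
Log2 fold changes (x axis) with SE bars of the members tested in each of the 6 classes, for the 3 comparisons; filled points have an edgeR adjusted p under 0.05. The filled points are H2-K1, B2m, Psmb9 and Tap2 in endothelial-like cells and H2-K1 in NK cell-like cells, all below 0.

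Whether the classes differed in their response was tested on the difference itself, the YAP7d minus WT change in endothelial-like cells minus that in another class, with the library as a block. No member was called by edgeR against macrophage-like cells (1.28% of genes called), T cell-like cells (2.70%) or B cell-like cells (2.14%), with 2 of 9, 3 of 10 and 1 of 9 at an unadjusted p under 0.05, and limma on the within-library differences called 0 as well. Against B cell-like cells the difference was -0.39 for H2-K1 (SE 0.329, edgeR adjusted p = 0.640), -0.54 for B2m (SE 0.285, edgeR adjusted p = 0.396) and -1.22 for Tap2 (SE 0.496, edgeR adjusted p = 0.233). Against macrophage-like cells it was 0.38 for H2-K1 (SE 0.349, edgeR adjusted p = 0.836). Leaving out 1 library gave some calls, listed with the share of all genes called in the same fit. Against B cell-like cells B2m was called without YAP3d library 2 (2.39%) or 3 (2.45%), and B2m and Tap2 without YAP7d library 1 (1.48%). Against T cell-like cells Tap2 was called without YAP3d library 4 (8.27%) or YAP7d library 1 (1.74%). The calls made in endothelial-like cells are thus not shown to set this class apart, and no such difference was tested for NK cell-like cells.

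Hepatocyte-like cells, the class meant to carry the induced YAP, could be compared only between YAP3d and YAP7d, since WT gave 3 such cells with 18 counts of B2m and 0 of H2-K1. Over the libraries with at least 10 of these cells, B2m was at 2174, 1198 and 1175 CPM in YAP3d and 1545, 1435 and 1992 in YAP7d, and H2-K1 at 67.1, 111 and 430 CPM in YAP3d and 97.8, 111 and 140 in YAP7d. The groups overlapped in both. The log2 fold change was 0.12 for B2m (95% interval -0.49 to 0.73) and -0.97 for H2-K1 (-2.29 to 0.36), and of the 4 members tested 0 were called by edgeR, with 0 at an unadjusted p under 0.05, where 3.09% of genes were called. Of the 63 H2-K1 counts in YAP3d hepatocyte-like cells 45 came from YAP3d library 4. The hepatocyte-like cells of that library also held more transcripts that mark other cells than those of YAP3d libraries 2 and 3. Endothelial markers were at 659 CPM against 67.1 and 44.4, and T cell markers at 287 against 0 in both. B cell markers were at 143 CPM against 0 in both, and MHC class II genes at 1309 against 228 and 288. Their part was not tested.

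The split of the libraries by Gm10709 was followed by comparing only libraries alike in it, an alternative chosen after seeing the data. Among the libraries with these transcripts (YAP3d 1 and 2, YAP7d 1 to 3), endothelial-like cells gave values from YAP3d to YAP7d close to those over all libraries, with H2-K1 at -0.56 (edgeR adjusted p = 0.0914), B2m at -0.43 (0.146), Tap2 at -1.08 and Psmb9 at -0.61 on the log2 scale. NK cell-like H2-K1 was at -0.69 (edgeR adjusted p = 0.0973). In macrophage-like cells the values there were near 0, at -0.14 for H2-K1 and 0.05 for B2m, but of the only 2 YAP3d libraries in this fit, library 2 stood apart as given above and library 1, with 1438 CPM of H2-K1 and 5976 CPM of B2m in only 11 cells, lay above all YAP7d libraries. Among the libraries without these transcripts, YAP3d minus WT gave -0.16 for H2-K1 in endothelial-like and -0.35 in macrophage-like cells, neither called. With a term for the split, no member was called in any class, and H2-K1 from WT to YAP7d was -0.70 in endothelial-like, -1.04 in NK cell-like (edgeR adjusted p = 0.316) and -0.61 in macrophage-like cells.

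**Figure D4:**
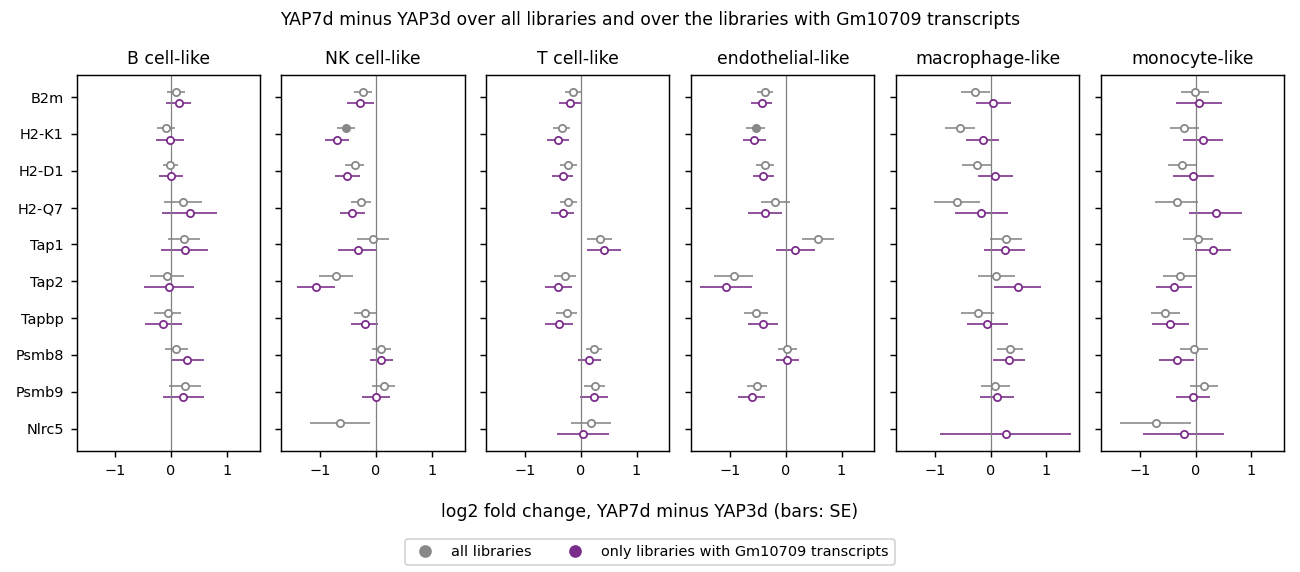
Log2 fold changes from YAP3d to YAP7d (x axis, bars SE) of the members in the 6 tested classes, over all libraries (grey) and over the 5 libraries with Gm10709 transcripts (purple); filled points have an edgeR adjusted p under 0.05. In endothelial-like and NK cell-like cells the purple H2-K1 points lie near the grey ones, at -0.56 and -0.69, and in macrophage-like cells near 0, where 1 of the 2 YAP3d libraries, library 2, stood apart.

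When the immunoproteasome is built, Psmb8 takes the place of the constitutive subunit Psmb5, Psmb9 that of Psmb6 and Psmb10 that of Psmb7. The share of the 3 immunoproteasome subunits in the counts of all 6 therefore sets them against their counterparts. In endothelial-like cells the 2 WT libraries averaged 56.3 ± 3.74% (SD), the 4 YAP3d libraries 50.7 ± 2.07% and the 3 YAP7d libraries 40.2 ± 2.45%. In the same order of groups it was 73.6 ± 5.75%, 58.9 ± 8.72% and 53.7 ± 1.13% in macrophage-like cells, in monocyte-like cells 68.9 ± 1.47%, 63.3 ± 2.89% and 57.9 ± 1.88%, and in NK cell-like cells 71.8 ± 2.37%, 71.9 ± 1.86% and 60.0 ± 2.01%. In these 4 classes every YAP7d library lay below every WT library. T cell-like (73.2 ± 1.52% and 70.4 ± 2.68%) and B cell-like cells (62.7 ± 2.68% and 62.6 ± 1.87%) overlapped between WT and YAP7d. By an exact two-sided permutation test the smallest p that 3 against 2 libraries allow is 0.1, which these 4 classes reached, and the adjusted p over 19 tests of this share was 0.238. The test was chosen after the values were seen. In the same comparison all 14 constitutive proteasome genes of a list had log2 fold changes above 0 from WT to YAP7d in endothelial-like, NK cell-like, macrophage-like and monocyte-like cells. The list includes Psmb5, Psmb6 and Psmb7 themselves. The count has no share of all genes beside it, and its part in the shares above was not tested.

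**Figure D5:**
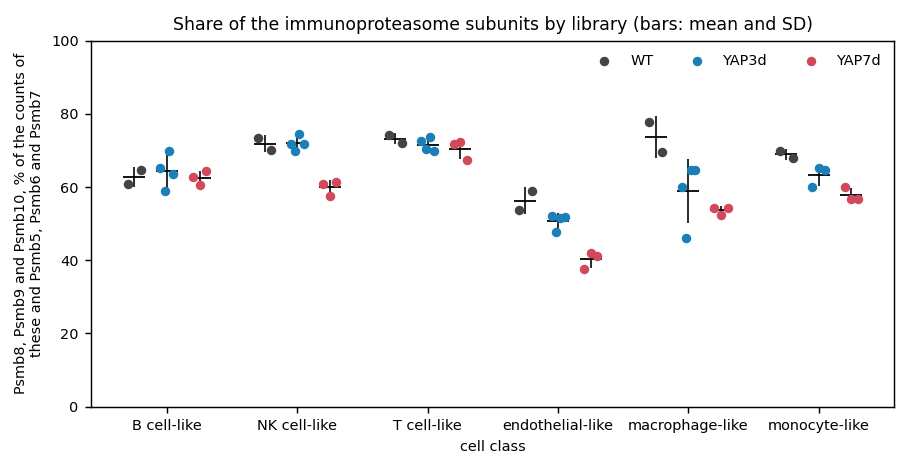
Share in percent of Psmb8, Psmb9 and Psmb10 in the counts of these and Psmb5, Psmb6 and Psmb7 (y axis, from 0 to 100) by class; points are libraries and bars the mean and SD of a group. The YAP7d libraries lie below the WT libraries in NK cell-like, endothelial-like, macrophage-like and monocyte-like cells and overlap with them in B cell-like and T cell-like cells.

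The wider pathway was read from companion lists, each given beside the median of all genes tested, which lay between -0.04 and 0.09 on the log2 scale in these classes, and beside the share of all genes called between YAP7d and WT, which was 18.3% in endothelial-like, 3.96% in NK cell-like, 1.15% in macrophage-like and 0.802% in monocyte-like cells. In endothelial-like cells 11 of 15 interferon-induced genes tested were lower in YAP7d than in WT and 0 higher, with a median log2 fold change of -1.40. They included the interferon-inducible GTPases Irgm2 (-2.84, edgeR adjusted p = 0.00119), Ifi47 (-1.73, edgeR adjusted p = 0.00107) and Iigp1 (-1.35, edgeR adjusted p = 0.00206). In macrophage-like cells 1 of 14, the GTPase Irgm1 (-1.64, edgeR adjusted p = 0.0388), and in monocyte-like cells 2 of 14, the guanylate-binding proteins Gbp2 (-3.58) and Gbp4 (-2.92), were lower, with list medians of -1.14 and -1.27. In NK cell-like cells 0 of 9 were called by edgeR (1 at an unadjusted p under 0.05, median -0.51). Of the interferon receptors and signalling genes, 3 of 11 were lower in endothelial-like cells, Irf9 (-1.04), Socs1 (-1.20) and Jak1 (-0.73), a share near that of all genes. Of the factors that bind class I promoters 2 of 10 were called in endothelial-like cells, also near the share of all genes, and 1 of 9 in NK cell-like cells, all lower. Irf1, itself interferon-induced, was lower in endothelial-like (-1.13, edgeR adjusted p = 0.00107) and NK cell-like cells (-1.12, edgeR adjusted p = 0.0471), and Nfya, a CCAAT-binding subunit, in endothelial-like cells (-1.66, edgeR adjusted p = 0.0421).

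Other class I heavy chains were called as well. In endothelial-like cells 3 of 7 tested were lower, H2-T23 (-1.12, edgeR adjusted p = 0.000761), H2-Q4 (-1.21, edgeR adjusted p = 0.00195) and H2-T24 (-2.46, edgeR adjusted p = 0.0475), and in NK cell-like cells 1 of 6, H2-Q4 (-1.17, edgeR adjusted p = 0.0389), with 0 higher in either. Of the class I-like molecules the neonatal Fc receptor chain Fcgrt, which also pairs with B2m, was lower in endothelial-like cells (-0.85, edgeR adjusted p = 0.00599). Of 10 peptide-loading genes, chaperones and trimming enzymes, 0 were called by edgeR in endothelial-like, NK cell-like, macrophage-like or monocyte-like cells, with medians of 0.12, -0.05, 0.34 and 0.25 and 1, 0, 1 and 2 genes at an unadjusted p under 0.05. Of the 6 further immunoproteasome and activator genes (5 of them tested in NK cell-like cells) 0 were called there by edgeR, with 1 at an unadjusted p under 0.05 in endothelial-like cells and 0 in the others. Of the constitutive proteasome genes 4 of 14 were higher in endothelial-like cells against WT, among them Psmb4 (0.87), Psmb7 (0.82) and Psmb1 (0.53), with a median of 0.49, and in NK cell-like cells 0 of 14 were called by edgeR against WT (8 at an unadjusted p under 0.05, median 0.55) and 7 of 14 higher against YAP3d, where 10.4% of all genes were called. MHC class II genes, a separate pathway of antigen presentation, were lower in macrophage-like cells, 4 of 7 with a median of -4.48, including H2-Ab1 (-4.50), H2-Aa (-4.48) and Cd74 (-4.77, all with an edgeR adjusted p of 0.00337), and 2 of 7 were lower in monocyte-like cells. In endothelial-like cells 0 of 6 were called by edgeR (0 at an unadjusted p under 0.05, median 0.38). In the same comparison 11 of 12 dissociation response genes were lower and 31 of 33 proliferation genes higher in endothelial-like cells, against 6 of 11 and 9 of 32 in NK cell-like cells.

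The make-up of the libraries and the level of a whole library were compared as well. Monocyte-like and macrophage-like cells together were 7.68% and 8.97% of the cells in WT and 43.6% to 58.0% in YAP7d, endothelial-like cells 35.5% and 53.0% against 3.49% to 4.99%, and T and NK cell-like cells 25.1% and 31.0% against 19.3% to 30.2%, which overlapped. In sums over all cells of a library, in which fewer cells of a type and less RNA per cell cannot be told apart, H2-Q7 had 374 and 400 CPM in WT, 514, 290, 397 and 311 in YAP3d and 230, 123 and 182 in YAP7d. It was called lower in YAP7d than in WT, at -0.95 on the log2 scale (SE 0.293, edgeR adjusted p = 0.0487), and than in YAP3d, at -0.91 (SE 0.254, edgeR adjusted p = 0.0363). Nlrc5 had 20.3 and 15.9 CPM in WT, 11.6, 12.2, 11.1 and 11.4 in YAP3d and 10.5, 5.53 and 6.55 in YAP7d and was called against WT (-1.08, SE 0.276, edgeR adjusted p = 0.0251). These were 2 of 10 members against WT, where 18.1% of genes were called, and 1 of 10 against YAP3d, where 16.5% were. Against WT, YAP3d had 0 called by either tool and 1 at an unadjusted p under 0.05, where 0% of genes were called. The 2 calls against WT were 0 without WT library 1 or 2 or YAP7d library 2 or 3 and 1 without YAP3d library 3 or 4 or YAP7d library 1, and the call against YAP3d was lost without any 1 library but YAP3d library 2. Each library was also set to the same mean mix of the 6 classes, and the difference of mean log2(CPM + 1) from WT to YAP7d was taken. For H2-Q7 it went from -1.16 to -0.43, while that of Nlrc5 went from -1.20 to -0.99 and that of H2-K1 from -0.73 to -0.68. Psmb8 went from 0.15 to -0.070. No test was run on these standardised levels. H2-Q7 is low in monocyte-like and macrophage-like cells and high in T and NK cell-like cells, as given above.

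Counted per cell rather than per UMI, with every cell thinned to 1000 UMIs, H2-K1 was seen in 73.0% and 80.7% of endothelial-like cells in WT, 71.0% to 74.0% in YAP3d and 58.3%, 39.1% and 71.9% in YAP7d. In macrophage-like cells it was seen in 87.0% and 86.4% in WT, 66.7%, 50%, 52.4% and 71.4% in YAP3d and 60.2%, 57.1% and 54.1% in YAP7d. YAP7d lay below WT in both classes. Without thinning the shares were 87.0% and 98.4% in WT and 95.7% or more in YAP7d for endothelial-like cells, and 92.9% and 100% in WT and 96.4% or more in YAP7d for H2-K1 in macrophage-like cells, beside the difference in depth given above. Hepatocyte-like cells, the class with the lowest level, showed H2-K1 in 3.57% to 27.3% of cells when thinned alike, over the libraries with at least 10 of them, at median depths of 2239.5 to 11753 UMIs, so the shares in both classes lay above it. In WT library 1, 241 of 276 endothelial-like and 23 of 28 macrophage-like cells had the 1000 UMIs needed, and in YAP7d all did.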

How the data were processed

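Droplet 3' single-cell RNA-seq of mouse liver was measured in 9 libraries. The authors aligned the reads to mm10 and counted UMIs with Cell Ranger (the submitters' processing notes also name Seurat 2), and the deposited table holds raw integer counts per gene and cell, with the library in each cell's name. Cells with under 200 genes were left out (35 of 8562), and 60 called doublets (0.704%) were kept. Counts were scaled to 10000 per cell, and 2421 variable genes, without the members, the listed genes and cell cycle genes, gave 30 principal components, 15 neighbours and Leiden clusters at resolution 1 (scanpy 1.11.5). A cluster took a class, written "-like", with at least 3 raised markers. The 22 cells of 1 cluster stayed unnamed.

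Counts were summed per library and class (at least 10 cells) and fitted on all genes left by filterByExpr, with the 3 groups together, by edgeR 4.0.16 quasi-likelihood with TMM factors, and p-values were adjusted by Benjamini-Hochberg over all genes of a class. DESeq2 1.42.0 and limma 3.58.1 were alternatives. The fits were tested on simulated data. The labels give 1 title per library and do not say that each is a separate animal, so p-values and 95% intervals measure the spread between these libraries. Whether libraries of the same replicate number pair was checked, and the check did not settle it. The members, lists and tests were chosen with earlier results of these data known. All 10 members are named whatever their change, and of each companion list at most the 3 called genes with the smallest adjusted p in a class and comparison. RefSeq for GRCm38.p6 gave coordinates and promoters, and no protein sequences were used here. One result of the interferon signalling list is not reported here.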

Additional observations from a re-analysis of the deposited data

Results flagged for a closer look

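In 7 of 80 values tested, 1 library lay far from the other 3 of its YAP3d group, where chance gives about 1 in 20. In macrophage-like cells, YAP3d library 2 was low in B2m, at 3343 CPM against 5711 to 6157, and in H2-K1, at 677 CPM against 1386 to 1458, and the same library was low in macrophage markers and MHC class II genes. In the same class YAP3d library 1, with 11 cells, was high in Psmb8, at 579 CPM against 386 to 397. H2-D1 in B cell-like cells was 2387 CPM in YAP3d library 4 against 2543 to 2560. The Tap1 share of Tap1 and Tap2 counts in NK cell-like cells was 54.5% in YAP3d library 3 against 39.3% to 41.8%. The H2-K1 share of H2-K1 and H2-D1 counts in T cell-like cells was 43.1% in YAP3d library 3 against 40.8% to 41.2%. The immunoproteasome share in endothelial-like cells was 47.6% in YAP3d library 2 against 51.5% to 52.0%. The difference of endothelial-like cells from B cell-like, macrophage-like and T cell-like cells, the 3 tested, was called for no member over all libraries. The causes were not tested.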

How the results depend on the processing

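No called result changed direction, and the shares of cells with an H2-K1 UMI, which were not tested, changed sign without thinning. At clustering resolution 0.5 no endothelial-like class could be fitted, since 92 of its 111 YAP7d cells were named stellate-like. The count of called members is given for the larger changes, and the cause of each was not tested. Smaller changes are not listed, such as 4 to 3 in endothelial-like cells between YAP7d and WT with DESeq2. In endothelial-like cells the 4 called between YAP7d and WT became 7 with no filter on low counts and 0 with a term for the libraries with Gm10709 transcripts or with cells thinned to 2000 UMIs (0 to 5 with 1 library left out). The 1 called there between YAP7d and YAP3d became 2 with no filter or with stricter cells (500 genes or more, mitochondrial share up to 10%), and 0 with RLE size factors, the Gm10709 term, only the libraries with Gm10709 transcripts, or thinning (0 to 1 with 1 library left out). In NK cell-like cells the 1 called between YAP7d and WT became 2 at clustering resolution 2 and 0 with no filter, the Gm10709 term or thinning (0 to 3 with 1 library left out). The 1 called there between YAP7d and YAP3d became 0 with no filter, scaling without the members and lists, the Gm10709 term, only the libraries with Gm10709 transcripts, the stricter cells, resolution 0.5, no doublets or thinning (0 to 1 with 1 library left out). In macrophage-like cells the 0 called between YAP7d and WT became 2 with DESeq2 and 1 (H2-K1) in a fit of only those 2 groups (0 to 3 with 1 library left out), and between YAP7d and YAP3d 0 became 0 to 1 with 1 library left out.

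Over all cells the 2 called between YAP7d and WT became 1 with RLE and 0 with the Gm10709 term (0 to 2 with 1 library left out), and the 1 called between YAP7d and YAP3d became 2 with DESeq2 and 0 with the Gm10709 term or only the libraries with Gm10709 transcripts (0 to 2 with 1 library left out). The differences between classes stayed at 0 called, or 0 to 2 against B cell-like and 0 to 1 against T cell-like cells with 1 library left out. With the replicate number as a block, macrophage-like cells had 2 called between YAP7d and WT (H2-K1 and H2-Q7), NK cell-like cells 0 between YAP7d and YAP3d, and all cells 1 against WT and 0 against YAP3d. Deviations of same-numbered libraries had correlations from -0.39 to 0.31, and those of replicate 1 were all above 0 (0.04 to 0.31). With only 2 WT libraries, the deviation of 1 mirrors that of the other. The check therefore does not settle whether the number is a pairing. WT library 2, YAP3d library 4 and YAP7d library 3 did deviate together (0.11 to 0.56 in the 4 classes checked), and no fit used this. At the mean class mix the whole-library log2 differences of H2-Q7, Tap1, Psmb8 and Psmb9 became -0.43, -0.26, -0.070 and -0.36. The share of cells with an H2-K1 UMI, -20.4 percentage points from WT to YAP7d in endothelial-like cells, became 5.87 without thinning, and -29.6 in macrophage-like cells became -18.5 at 2000 UMIs and 1.66 without thinning. The fits with Gm10709 and those moving cluster 12 were chosen after seeing the data.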
